A study of Rattus norvegicus and Mus musculus with 25 samples.

Results

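Knockdown of Vldlr, the gene of the very low density lipoprotein receptor, was examined in cultured rat heart cells with a small interfering RNA (siRNA). The comparison covered 2 si-Vldlr libraries and 2 si-Control_v libraries, of 25 in the series and 16 from rat. Genes were taken where at least 2 of the 4 libraries reached 1 CPM (the authors' unit, in which every library sums to 1000000), which gave 13451 of the 28905 uniquely named genes in the table. The si-Vldlr cells had received 50 nM of siRNA against Vldlr for 60 h, and the si-Control_v cells 50 nM of control siRNA for 60 h. All 4 libraries came from neonatal rat ventricular cardiomyocytes (NRVC) of 1-day-old SD rats, which had been pre-plated for 90 min to take out faster-attaching cells and were then kept in medium with 0.25% serum. The siRNA sequences, the number of siRNAs and whether the replicates came from separate cell isolations are not given in the sources used here. In the main fit the p-values take their spread from 10 libraries in 5 groups, these 4 libraries among them. They thus measure only how far replicate libraries of those groups spread, and that spread may be technical.

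Other groups of the series serve as values set beside the knockdown. NRVC of the same strain and age were given Reelin or PBS for 48 h, carried the overexpression construct (Vldlr OE, an AAV9 vector with the cardiomyocyte promoter cTnT) for 72 h, or received si-Thbs1 or its own control si-Control_t at 50 nM for 60 h. Myh6-Cre;Vldlr f/f mouse cardiomyocytes, in which a cardiomyocyte promoter drives Cre in cells with floxed Vldlr, were set against Vldlr f/f cardiomyocytes with no Cre, both C57BL/6 and from day 1. Each rat group had 2 libraries and each mouse group 3.

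The very low density lipoprotein receptor binds triglyceride-rich lipoproteins, and lipoprotein lipase at the cell surface releases fatty acids from them. It also binds the secreted protein Reelin and passes that signal into the cell through the adaptor Dab1, a route best known from neurons that migrate in the developing brain. The receptor is abundant in heart muscle, which draws much of its energy from fatty acids. Newborn cardiomyocytes still divide and then leave the cell cycle within days of birth.

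The libraries held 13233 and 13308 genes at 1 CPM or more in si-Vldlr cells, and 13340 and 13466 in si-Control_v cells. Each deposited column sums to 1000000, and read numbers are not given, so the depth behind a value is unknown. The si-Control_v replicate 2 library stood apart from the other 3. Mitochondrially encoded genes took 3.97% and 4.35% of the signal in si-Vldlr cells, against 4.32% and 6.51% in si-Control_v cells. The Pearson correlation of log2(CPM + 1) across 13815 genes was 0.9891 between the si-Vldlr libraries and 0.9822 between the si-Control_v libraries, and it was 0.9774 to 0.9863 between libraries of different groups. List medians that lean on this library are given with and without it.

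Vldlr itself was lower in both si-Vldlr libraries. It stood at 183 and 171 CPM in si-Vldlr cells, against 252 and 257 CPM in si-Control_v cells. The groups did not overlap, and the mean was 177 ± 8.38 CPM in si-Vldlr cells and 255 ± 3.27 CPM in si-Control_v cells (SD, n = 2 each). Its log2 fold change was -0.52 ± 0.13 (SE; 95% interval -0.82 to -0.22), a level 1.44-fold lower. Fold changes are si-Vldlr over si-Control_v after log2(CPM + 1), so the true fold of a weakly expressed gene is larger than the one given. The limma test with Benjamini-Hochberg adjustment over 13815 genes did not call it (adjusted p = 0.272, and 0.165 to 0.993 over the alternative settings). Outside the siRNA groups Vldlr stood at 400 and 364 CPM in Reelin cells, 656 and 889 CPM in Vldlr OE cells, and 371 and 348 CPM in PBS cells. Both siRNA groups were thus below every library without siRNA, and the si-Vldlr libraries were the lowest of the 10. Bulk libraries cannot tell fewer expressing cells from less RNA per cell.

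The receptor's ligands and relatives are the first neighbours of interest. Thbs1, whose product thrombospondin-1 is a secreted matrix protein, stood at 1864 and 1650 CPM in si-Vldlr cells, against 1601 and 1322 CPM in si-Control_v cells. Reln, the gene of Reelin, had 2.50 and 2.11 CPM in si-Vldlr cells, against 4.11 and 1.41 CPM in si-Control_v cells. Neither was called, with limma adjusted p = 0.48 for Thbs1 and 0.95 for Reln, and the Reln groups overlapped. Without si-Control_v replicate 1 the log2 fold change of Reln turned to 0.45, from -0.09 with all libraries. Lrp8, the gene of the other Reelin receptor, had 23.2 and 24.4 CPM in si-Vldlr cells, against 29.7 and 18.3 CPM in si-Control_v cells, which enclosed them. The 12 tested genes of the receptor family had a median log2 fold change of 0.07, beside -0.02 over all genes, and Vldlr had the lowest value among them. Mylip, a ubiquitin ligase that marks Vldlr and other family members for degradation, stood at 48.9 and 44.7 CPM in si-Vldlr cells, against 37.8 and 37.6 CPM in si-Control_v cells (limma adjusted p = 0.356).

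Of the 13815 genes fitted, 5 passed the limma test at an adjusted p under 0.05, or 0.0362%. Of these, 3 rose (0.0217%) and 2 fell (0.0145%). An unadjusted p under 0.05 was reached by 1633 genes, 695 higher (5.03%) and 938 lower (6.79%).

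Olr1 rose. It is the gene of a scavenger receptor that takes up oxidised low density lipoprotein, and it stood at 78.3 and 79.8 CPM in si-Vldlr cells, against 31.8 and 23.7 CPM in si-Control_v cells. The si-Vldlr libraries lay close together and well above the si-Control_v ones, with a log2 fold change of 1.49 ± 0.14 (SE; limma adjusted p = 0.0138). Olr1 stood between the groups in Reelin cells, at 44.2 and 40.6 CPM, and in PBS cells, at 49.3 and 41.0 CPM. Vldlr OE cells, in which the receptor is raised and not reduced, held 62.3 and 67.1 CPM of Olr1. The call was lost when only the 4 siRNA libraries were fitted, when no filter on low values was used, and when either si-Vldlr library was left out, with adjusted p from 0.00464 to 0.137 over the settings.

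Nefm, which encodes the medium chain of the neurofilaments, also rose. It stood at 11.9 and 12.9 CPM in si-Vldlr cells, against 4.19 and 2.70 CPM in si-Control_v cells. The log2 fold change was 1.61 ± 0.17 (SE; limma adjusted p = 0.0206, and 0.00464 to 0.189 over the settings, lost under the same 4 as for Olr1). Nefl, the light chain that assembles with it, had 2.28 and 2.20 CPM in si-Vldlr cells, against 0.516 and 0.526 CPM in si-Control_v cells. Tubb3, a tubulin typical of neurons, had 43.2 and 36.2 CPM in si-Vldlr cells, against 22.8 and 16.8 CPM in si-Control_v cells. Both sets lay apart by group, but neither gene was called (limma adjusted p = 0.114 for Nefl and 0.132 for Tubb3). The 7 tested markers of Schwann cells and neurons did not share this pattern. The glial marker S100b and the noradrenergic enzyme Dbh had negative log2 fold changes of -0.39 and -0.24.

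The other 3 called genes were each listed at 0 in some library. LOC103694902 fell, with 0 and 0 CPM in si-Vldlr cells, against 31.6 and 35.2 CPM in si-Control_v cells (limma adjusted p = 0.000225, and 3.27e-05 to 0.00972 over the settings). It was also listed at 0 in a si-Control_t library, while the other si-Control_t library had 39.6 CPM. Abhd10, a mitochondrial thioesterase gene, fell with 0 and 0.910 CPM in si-Vldlr cells, against 5.03 and 6.54 CPM in si-Control_v cells (limma adjusted p = 0.0346, and 0.00328 to 0.215 over the settings). That call was lost with the 4 siRNA libraries alone, with no filter, with pseudocount 0.25 and without si-Control_v replicate 2. LOC100910669 rose with 2.36 and 2.26 CPM in si-Vldlr cells, against 0 and 0 CPM in si-Control_v cells (limma adjusted p = 0.0234, and 0.000523 to 0.141 over the settings). It was called in 5 of 11 settings, and lost with the 4 siRNA libraries alone, with no filter, with the replicate block, and without si-Control_v replicate 2 or either si-Vldlr library. Across the 4 libraries 51 genes were at 0 in some library and at 5 CPM or more in another, and 41 of these did so between replicates of a group. Among genes above 0 in all 10 libraries of the fit, only Olr1 and Nefm were called.

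**Figure D1:**
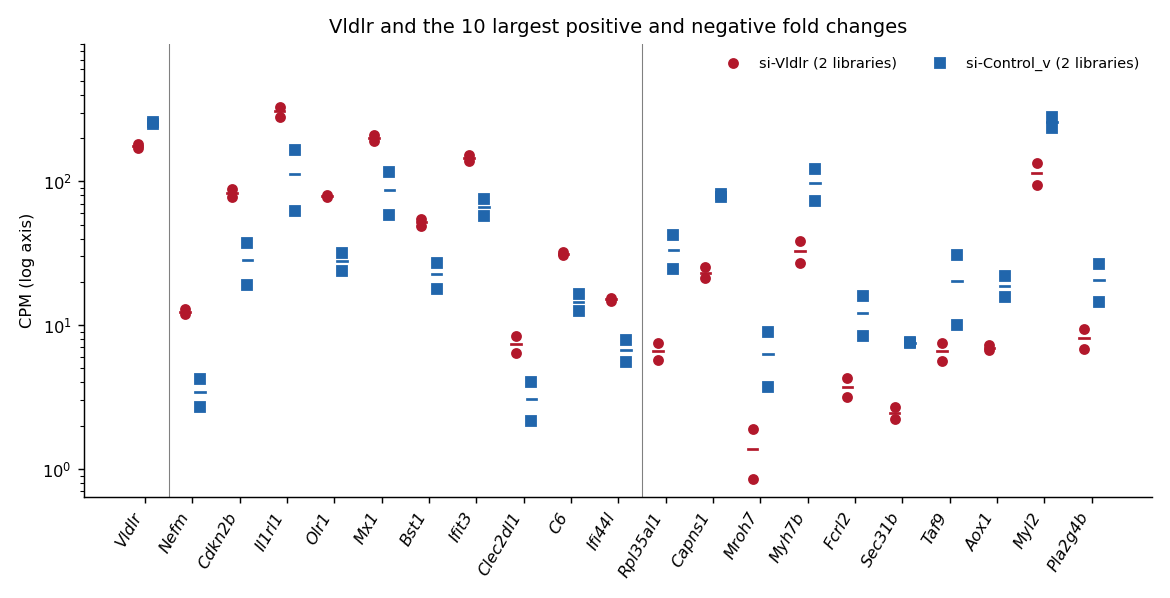
CPM on a log axis for Vldlr and for the 10 genes with the largest positive and the 10 with the largest negative log2 fold changes that met the naming rule; circles are the 2 si-Vldlr libraries, squares the 2 si-Control_v libraries, and bars their means. Olr1 and Nefm have si-Vldlr values close together and clear of the si-Control_v ones, and Il1rl1, Mx1 and Taf9 have control libraries that lie far apart.

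The largest differences outside the called genes were chosen for symbols with no overlap of the groups, an unadjusted p under 0.05, a mean of at least 5 CPM in either group and no library at 0. Of the 10 largest positive ones, Nefm and Olr1 are described above. Cdkn2b, which encodes an inhibitor of the G1 kinases Cdk4 and Cdk6, had 89.0 and 77.5 CPM in si-Vldlr cells, against 37.4 and 18.9 CPM in si-Control_v cells. Il1rl1, the receptor for the alarmin interleukin-33, had 330 and 281 CPM in si-Vldlr cells, against 164 and 61.8 CPM in si-Control_v cells. For both genes the si-Control_v libraries differed from each other by more than the si-Vldlr libraries did. Bst1, an ADP-ribosyl cyclase of the cell surface, had 49.1 and 54.9 CPM in si-Vldlr cells, against 27.2 and 17.9 CPM in si-Control_v cells. C6, a component of the complement attack complex, had 30.6 and 32.1 CPM in si-Vldlr cells, against 16.5 and 12.5 CPM in si-Control_v cells. The lectin-like gene Clec2dl1 was higher too, at 8.34 and 6.45 CPM in si-Vldlr cells, against 4.00 and 2.15 CPM in si-Control_v cells. The remaining 3, Mx1, Ifit3 and Ifi44l, are interferon-induced.

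The 10 largest negative differences included genes of muscle. Myl2, the regulatory light chain of the ventricle, had 133 and 94.1 CPM in si-Vldlr cells, against 236 and 281 CPM in si-Control_v cells. Myh7b, a myosin heavy chain of slow muscle, had 27.0 and 38.5 CPM in si-Vldlr cells, against 72.5 and 122 CPM in si-Control_v cells. Capns1, the regulatory subunit shared by the major calpain proteases, had 21.2 and 25.2 CPM in si-Vldlr cells, against 81.7 and 77.2 CPM in si-Control_v cells. Of these 3 genes Capns1 had the closest replicates, and it was called only when the 4 siRNA libraries were fitted alone. Aox1, an aldehyde oxidase, had 6.67 and 7.24 CPM in si-Vldlr cells, against 15.6 and 21.9 CPM in si-Control_v cells. The others were Rpl35al1, Mroh7, Fcrl2, Sec31b, Taf9 and Pla2g4b, with log2 fold changes of -2.13, -1.56, -1.43, -1.31, -1.30 and -1.19. Rpl35al1 is named as a ribosomal protein L35a-like gene, so its reads may be shared with near-identical copies and its value is uncertain.

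Interferon-response genes had the highest median of the 40 gene lists compared. Interferons are secreted when cells sense foreign nucleic acid, and they switch on antiviral effectors through transcription factors, Stat2 and Irf9 among them, that bind the interferon-stimulated response element. Of the 54 genes tested, 53 had a positive log2 fold change (46.0% of all genes fitted). In 46 of them both si-Vldlr libraries lay above both si-Control_v libraries (21.1% of all genes), and in 18 this came with a fold of at least 1.5 (1.20%). An unadjusted p under 0.05 was reached by 28 of them, all higher (5.03%). The median log2 fold change was 0.48, beside -0.02 over all genes, and limma called 0 of the 54.

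Ifit3, which binds viral RNA together with its relatives, had 139 and 153 CPM in si-Vldlr cells, against 74.7 and 57.5 CPM in si-Control_v cells (log2 fold change 1.14 ± 0.21, limma adjusted p = 0.138). Mx1, a dynamin-like GTPase that blocks virus replication, had 190 and 211 CPM in si-Vldlr cells, against 116 and 57.9 CPM in si-Control_v cells. Ifi44l had 14.7 and 15.5 CPM in si-Vldlr cells, against 7.92 and 5.58 CPM in si-Control_v cells. In all 3 genes the si-Control_v replicate 2 library was the lowest of the 4. The same held for Isg15, a ubiquitin-like modifier, with 185 and 210 CPM in si-Vldlr cells, against 147 and 76.1 CPM in si-Control_v cells. Cxcl10, a chemokine induced by interferon-gamma, overlapped instead, with 61.2 and 64.3 CPM in si-Vldlr cells, against 63.9 and 51.7 CPM in si-Control_v cells. Irf7, the factor that amplifies the response, had 435 and 481 CPM in si-Vldlr cells, against 294 and 382 CPM in si-Control_v cells.

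In 47 of the 54 genes si-Control_v replicate 2 was the lowest of the 4 libraries, beside 4402 of 13815 genes overall. Without that library the median was 0.29, with 49 genes positive and 5 negative. Without si-Control_v replicate 1 it was 0.69, all 54 were positive and limma called 7. The direction of the median thus held either way, and its size turned on which control library was kept.

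**Figure D2:**
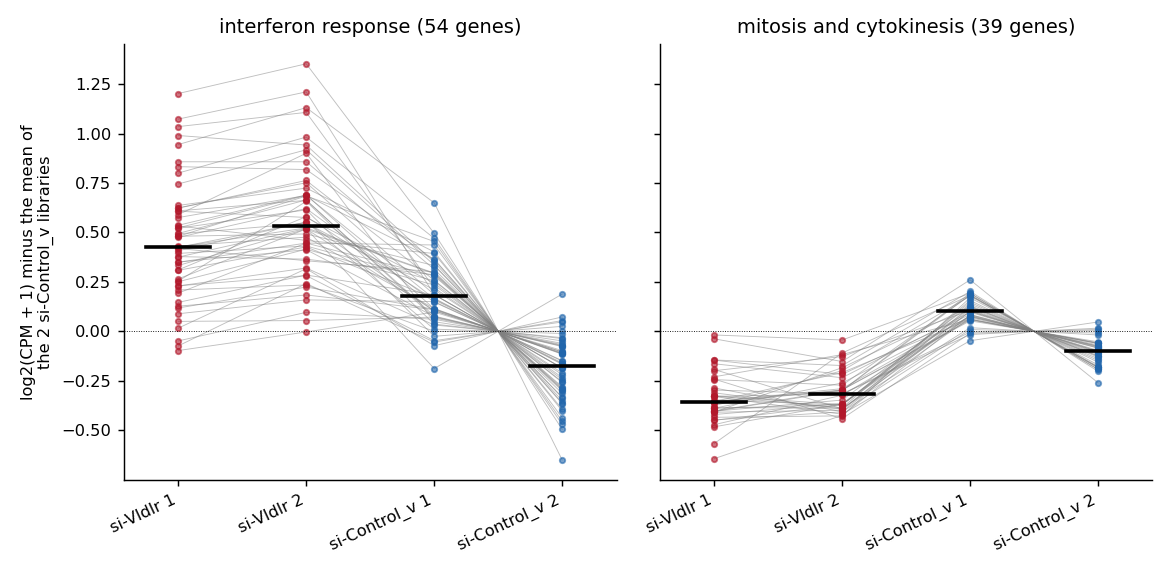
Each point is a gene in 1 library, as log2(CPM + 1) minus the mean of the 2 si-Control_v libraries, with lines joining a gene's libraries and black bars for the median; the si-Control_v points mirror each other around 0 by construction. The interferon-response medians are 0.43 and 0.53 in si-Vldlr cells, against 0.18 and -0.18 in si-Control_v cells, and the mitosis medians are -0.35 and -0.32 in si-Vldlr cells, against 0.10 and -0.10 in si-Control_v cells.

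All 4 siRNA libraries held far more of these transcripts than the cells that had no siRNA. In 52 of the 54 genes every siRNA library was above every Reelin, PBS and Vldlr OE library, as it was in 5.09% of all genes. Ifit3 had 1.29 and 0.795 CPM in Reelin cells, 3.89 and 2.58 CPM in Vldlr OE cells, and 1.26 and 1.95 CPM in PBS cells. The labels also give these groups other times, agents and controls, so siRNA transfection cannot be told apart from them. In the table of the Thbs1 knockdown, Ifit3 had 19.4 and 7.76 CPM in si-Thbs1 cells, against 70.3 and 199 CPM in si-Control_t cells. The control siRNA groups of both tables therefore sat well above PBS cells for this gene, though levels were set across tables here. Of the 54 interferon genes, 0 were higher with si-Thbs1 and all 54 lower, with a median log2 fold change of -1.27, beside 0.03 over the 13416 genes of that table.

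**Figure D3:**
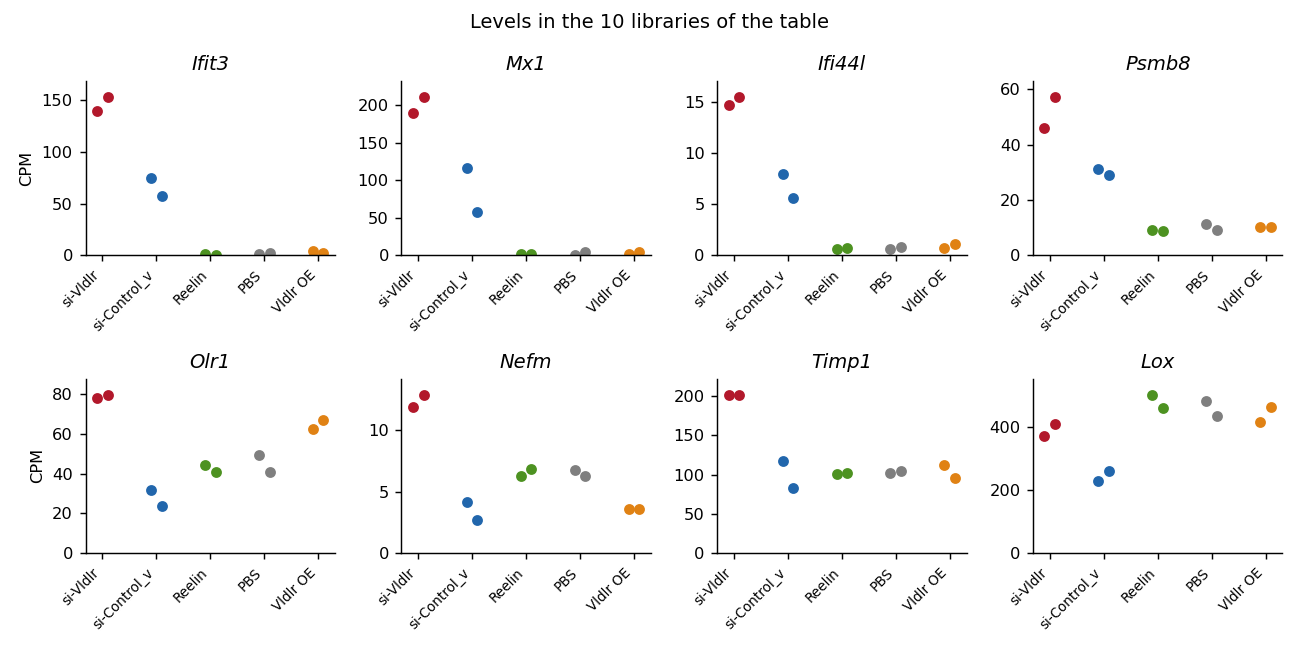
CPM of 8 genes in the 10 fitted libraries, 2 points per group, each panel from 0. Ifit3, Mx1, Ifi44l and Psmb8 are near their lowest in all cells without siRNA; Olr1, Nefm and Timp1 are highest in si-Vldlr cells; Lox is lowest in si-Control_v cells.

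Antigen processing genes, which cut and load peptides for display on class I molecules, were higher as well. Of 13 tested, 12 had a positive log2 fold change (46.0% of all genes), and 11 lay above si-Control_v with no overlap (21.1% of all genes). The median was 0.41, and 4 of the 13 are also on the interferon list. Cd74, the invariant chain of class II molecules, named after its values were seen, was the 1 gene on the other side, with 2.26 and 1.75 CPM in si-Vldlr cells, against 2.53 and 4.82 CPM in si-Control_v cells. B2m, the light chain of class I molecules, had 2285 and 2458 CPM in si-Vldlr cells, against 1496 and 1830 CPM in si-Control_v cells. Psmb8, a catalytic subunit of the immunoproteasome, had 46.0 and 57.3 CPM in si-Vldlr cells, against 31.3 and 29.2 CPM in si-Control_v cells (limma adjusted p = 0.138). Tap1, which carries peptides into the endoplasmic reticulum, had 88.3 and 96.5 CPM in si-Vldlr cells, against 70.5 and 60.9 CPM in si-Control_v cells. In none of these 3 genes did the groups overlap. The median stayed at 0.39 without si-Control_v replicate 2. Limma called 0 of the 13, with 8 at an unadjusted p under 0.05, all higher (5.03% of all genes).

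Sensors of foreign nucleic acid differed among themselves. Of 19 tested, 12 were higher and 7 lower, with a median log2 fold change of 0.22, or 0.10 without si-Control_v replicate 2. The interferon list shares 6 of the 19, Ddx58 and Zbp1 among them. Ddx58, the cytoplasmic RNA sensor also called RIG-I, had 67.6 and 71.9 CPM in si-Vldlr cells, against 57.3 and 32.4 CPM in si-Control_v cells. Zbp1, a sensor of nucleic acids in the Z form, had 2.63 and 3.00 CPM in si-Vldlr cells, against 1.82 and 0.971 CPM in si-Control_v cells. Mavs, the adaptor that Ddx58 signals through, was lower, with 29.8 and 32.9 CPM in si-Vldlr cells, against 35.6 and 42.9 CPM in si-Control_v cells. None of the 3 was called, with limma adjusted p = 0.314 for Zbp1, 0.356 for Ddx58 and 0.362 for Mavs.

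Promoters of the interferon genes were read because nearly all genes of the list lay on the same side. The letters of the interferon-stimulated response element (GAAA, then 2 bases of any kind, then GAAA) were searched on both strands in the 250 bases before each gene start in RefSeq on the rat build GRCr8. They were found in 24 of the 42 interferon genes with a sequence (57.1%) and in 6 of 11 antigen processing genes (54.5%), beside 2.79% of the 9799 fitted genes with a sequence. Across all 27457 genes with a sequence the share was 3.61%. The expression differences do not enter these shares, so the shares do not test them. The stretches below, given 5′ to 3′ on the gene's strand, belong to genes with a match among those of small p on these lists, and the capitals mark the matches, read on either strand. Psmb8, whose p was below those of Ifit3 and Tap1, has no match in its window and is not shown. The stretches lie at chr2:243328473-243328722 on the plus strand for Ifi44l, chr1:241527076-241527325 on the plus strand for Ifit3 and chr20:4668544-4668793 on the minus strand for Tap1.
Ifi44l: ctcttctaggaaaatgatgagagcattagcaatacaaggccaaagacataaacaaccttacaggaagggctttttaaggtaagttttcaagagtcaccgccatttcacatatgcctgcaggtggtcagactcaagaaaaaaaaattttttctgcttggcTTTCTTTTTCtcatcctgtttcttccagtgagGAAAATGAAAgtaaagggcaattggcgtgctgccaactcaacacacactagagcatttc
Ifit3: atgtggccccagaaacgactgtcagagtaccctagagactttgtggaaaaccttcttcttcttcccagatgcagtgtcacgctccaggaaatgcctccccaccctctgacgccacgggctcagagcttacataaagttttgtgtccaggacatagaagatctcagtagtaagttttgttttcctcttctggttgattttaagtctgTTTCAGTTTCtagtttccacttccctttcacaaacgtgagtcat
Tap1: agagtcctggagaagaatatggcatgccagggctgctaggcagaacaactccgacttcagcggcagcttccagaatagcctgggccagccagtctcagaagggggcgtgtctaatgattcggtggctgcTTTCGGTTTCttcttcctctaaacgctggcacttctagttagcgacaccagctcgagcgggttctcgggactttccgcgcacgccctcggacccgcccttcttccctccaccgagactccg
Ifi44l holds a pair of matches, which begin 91 and 59 bases before the gene start. In Ifit3 the match begins 44 bases before the start, and in Tap1 it begins 121 bases before it. A match describes the letters and does not show that a factor binds there.

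Mitosis and cytokinesis genes were lower in si-Vldlr cells. Cells make these transcripts as they pass through G2 and M phase, so their level in a culture follows how many cells are dividing. All 39 tested had a negative log2 fold change (54.0% of all genes), and in 35 both si-Vldlr libraries lay below both si-Control_v libraries (27.4% of all genes). A fold of at least 1.5 was reached by 0 of them (1.90% of all genes were that much lower without overlap). The median was -0.34, beside -0.02 over all genes. In 23 of the 39 the unadjusted p was under 0.05 (6.79% of all genes), and limma called 0.

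Foxm1, the transcription factor that drives many genes of this phase, had 16.7 and 19.6 CPM in si-Vldlr cells, against 28.3 and 25.1 CPM in si-Control_v cells (log2 fold change -0.53 ± 0.13, limma adjusted p = 0.256). Top2a, the topoisomerase that separates sister chromatids, had 94.2 and 98.7 CPM in si-Vldlr cells, against 126 and 117 CPM in si-Control_v cells. Mki67, the gene of the proliferation antigen Ki-67, had 75.4 and 70.8 CPM in si-Vldlr cells, against 91.9 and 98.2 CPM in si-Control_v cells. Each gene was lower in both si-Vldlr libraries, by amounts that were small beside those of Olr1 or Nefm. Ndc80, which ties kinetochores to microtubules, had 21.9 and 22.8 CPM in si-Vldlr cells, against 31.4 and 28.0 CPM in si-Control_v cells. Kif20a, a motor of cytokinesis, had 50.0 and 52.9 CPM in si-Vldlr cells, against 75.7 and 62.3 CPM in si-Control_v cells. Ect2, which switches on the contractile ring, had 38.2 and 38.4 CPM in si-Vldlr cells, against 58.6 and 46.1 CPM in si-Control_v cells.

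Here si-Control_v replicate 1 was the higher control, and in 35 of the 39 genes it was the highest of the 4 libraries. Without it the median was -0.25, with 36 genes lower and 3 higher. Without si-Control_v replicate 2 it was -0.44, and all 39 were lower. For Top2a and Foxm1 the si-Vldlr values were near those of PBS cells, where Top2a had 99.5 and 98.4 CPM and Foxm1 had 18.3 and 21.2 CPM. Whether this held for the other mitosis genes was not tested, and the list was not set against Vldlr OE cells here.

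The letters TTTGAA, those of the cell cycle homology region found before many G2 and M phase genes, were searched in the same windows on both strands. TTTGAA shares the run GAA with the response element, so a stretch can match both. It was found in 16 of the 33 mitosis genes with a sequence (48.5%), beside 10.7% of the fitted genes and 17.2% of all genes with a sequence. The response element was in 1 of these 33 (3.03%), and TTTGAA was in 6 of the 42 interferon genes (14.3%). Here too the expression differences do not enter the shares. The stretches below belong to mitosis genes described above that hold a match, which is in capitals. They lie at chr10:84473094-84473343 on the minus strand for Top2a and chr1:199952594-199952843 on the minus strand for Mki67 (GRCr8, RefSeq). Ect2 also holds a match, which begins 155 bases before its start, and is not shown. Ndc80 and Kif20a, described above too, have no match in their windows.
Top2a: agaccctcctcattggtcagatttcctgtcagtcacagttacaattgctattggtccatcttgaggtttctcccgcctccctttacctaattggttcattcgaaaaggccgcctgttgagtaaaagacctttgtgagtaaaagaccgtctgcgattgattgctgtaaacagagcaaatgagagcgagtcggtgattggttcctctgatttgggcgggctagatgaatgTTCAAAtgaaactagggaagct
Mki67: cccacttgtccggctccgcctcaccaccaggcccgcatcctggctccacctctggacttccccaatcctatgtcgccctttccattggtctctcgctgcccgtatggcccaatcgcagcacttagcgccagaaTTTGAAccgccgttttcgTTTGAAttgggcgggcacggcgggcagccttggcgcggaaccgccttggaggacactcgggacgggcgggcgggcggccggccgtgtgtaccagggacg
In Top2a the match begins 22 bases before the gene start and is read on the opposite strand. Mki67 holds a pair of matches that begin 117 and 99 bases before its start.

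DNA replication genes were lower to a smaller degree. Of 40 tested, 38 had a negative log2 fold change (54.0% of all genes) and 31 lay below si-Control_v with no overlap (27.4% of all genes), with a median of -0.21. Leaving out si-Control_v replicate 1 gave -0.16, and leaving out replicate 2 gave -0.24. Uhrf1, which carries DNA methylation through replication, had 27.7 and 29.4 CPM in si-Vldlr cells, against 38.0 and 35.0 CPM in si-Control_v cells. Pold1, the catalytic subunit of DNA polymerase delta, had 19.1 and 19.7 CPM in si-Vldlr cells, against 26.5 and 23.7 CPM in si-Control_v cells. Limma called 0 of the 40, with 11 at an unadjusted p under 0.05, all lower (6.79% of all genes).

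The G1 cyclins, kinases and E2F factors had a median of -0.16, with 18 of 21 genes lower. It came to -0.08 when si-Control_v replicate 1 was left out and to -0.26 when replicate 2 was. Cdk2, the kinase of S phase entry, had 25.9 and 29.3 CPM in si-Vldlr cells, against 33.9 and 33.4 CPM in si-Control_v cells. Ccnd1, the G1 cyclin D1, overlapped between the groups, with 195 and 153 CPM in si-Vldlr cells, against 280 and 179 CPM in si-Control_v cells. The inhibitors of the cycle and p53 targets were split, with 14 of 25 higher, 11 lower and a median of 0.03, or -0.03 without si-Control_v replicate 2. Cdkn1a, the p53 target p21, had 102 and 106 CPM in si-Vldlr cells, against 110 and 127 CPM in si-Control_v cells, while Cdkn2b, given above, was higher in si-Vldlr cells.

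**Figure D4:**
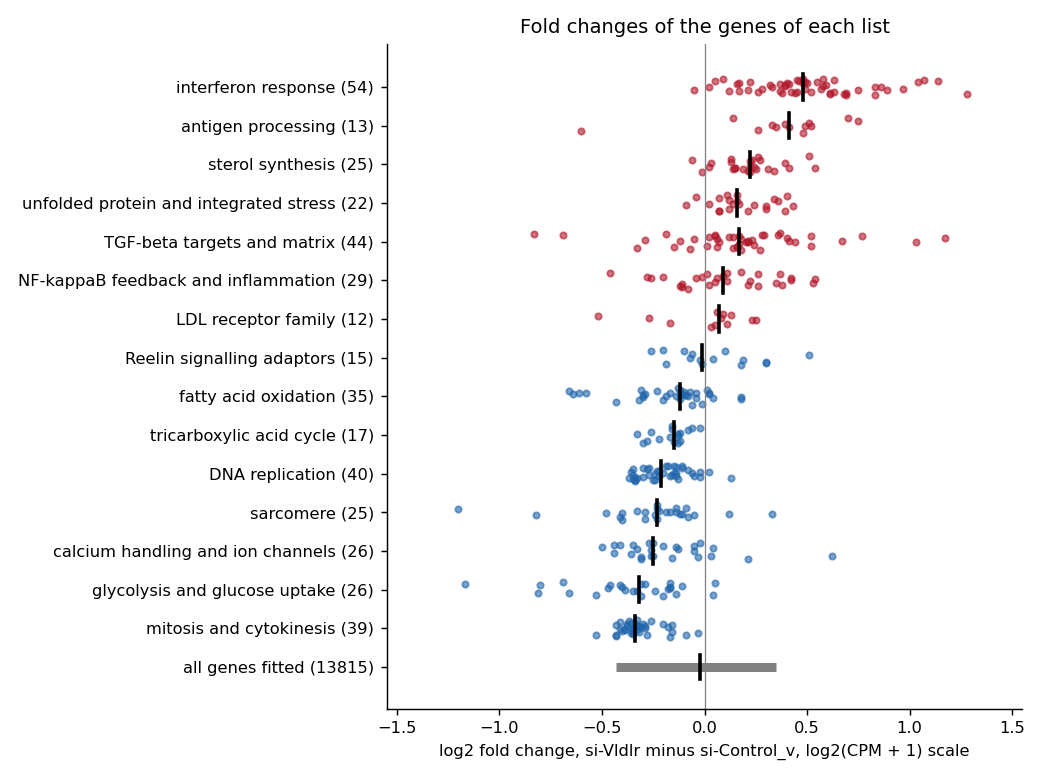
Log2 fold change, si-Vldlr minus si-Control_v on the log2(CPM + 1) scale, of each tested gene of 15 lists, with the number of genes in brackets and black bars for medians; the grey bar spans the 5th to 95th percentile of all 13815 genes. Interferon-response and antigen processing genes lie to the right at medians of 0.48 and 0.41, and mitosis genes to the left at -0.34.

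Genes of the matrix and of TGF-beta signalling leaned higher. TGF-beta drives fibroblasts to deposit and cross-link extracellular matrix. Of 44 tested, 35 had a positive log2 fold change (46.0% of all genes) and 9 a negative one. Without overlap, 24 were higher (21.1% of all genes) and 8 lower (27.4% of all genes), and the median was 0.17, or 0.12 without si-Control_v replicate 2. Limma called 0, with 9 higher (5.03% of all genes) and 4 lower (6.79% of all genes) at an unadjusted p under 0.05.

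Timp1, a secreted inhibitor of metalloproteinases, had 202 and 202 CPM in si-Vldlr cells, against 117 and 82.8 CPM in si-Control_v cells (log2 fold change 1.03 ± 0.15, limma adjusted p = 0.0959). Mmp3, a metalloproteinase that Timp1 can inhibit, had 2.89 and 2.36 CPM in si-Vldlr cells, against 0.697 and 0.526 CPM in si-Control_v cells (limma adjusted p = 0.114). Lox, the enzyme that cross-links collagen and elastin, had 373 and 410 CPM in si-Vldlr cells, against 229 and 262 CPM in si-Control_v cells (limma adjusted p = 0.114). For Lox the si-Control_v values were the low ones, since the 6 libraries without siRNA had 416 to 504 CPM. Eln, the gene of elastin, went the other way with 454 and 368 CPM in si-Vldlr cells, against 595 and 884 CPM in si-Control_v cells. Spp1, the gene of osteopontin, had 415 and 431 CPM in si-Vldlr cells, against 659 and 708 CPM in si-Control_v cells. For Timp1, Mmp3, Lox, Eln and Spp1 the groups did not overlap, and none was called.

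Ctgf, a matrix-associated factor and target of Hippo signalling, had 1826 and 1694 CPM in si-Vldlr cells, against 1527 and 1235 CPM in si-Control_v cells. Integrins, the receptors that bind matrix, had a median of 0.07, and -0.04 without si-Control_v replicate 2. Vgll3, a cofactor of the Tead factors, had 53.5 and 53.3 CPM in si-Vldlr cells, against 38.1 and 33.5 CPM in si-Control_v cells (limma adjusted p = 0.145). Neither Ctgf nor Vgll3 overlapped between the groups.

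Sarcomere genes, which build the contractile apparatus, leaned lower. Of 25 tested, 23 had a negative log2 fold change (54.0% of all genes) and 21 lay below si-Control_v with no overlap (27.4% of all genes). The median was -0.23, or -0.16 without si-Control_v replicate 2. Limma called 0, with 5 at an unadjusted p under 0.05, beside 1633 of all 13815 genes in both directions. Tnni3, the cardiac troponin I that replaces the fetal form, had 350 and 377 CPM in si-Vldlr cells, against 443 and 582 CPM in si-Control_v cells. Mybpc3, the cardiac myosin-binding protein C, had 1397 and 1472 CPM in si-Vldlr cells, against 1889 and 1901 CPM in si-Control_v cells. Myh6, the adult-type myosin heavy chain of rodents, had 942 and 1062 CPM in si-Vldlr cells, against 1166 and 2685 CPM in si-Control_v cells. The Myh6 difference came mostly from si-Control_v replicate 2, while that of Mybpc3 was alike against both control libraries. The natriuretic peptide genes Nppa and Nppb, markers of cardiomyocyte stress, overlapped between the groups. Their list of 11 had a median of 0.02, but -0.14 with 10 of 11 lower without si-Control_v replicate 2, and 0.23 with 9 of 11 higher without replicate 1.

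Calcium handling and ion channel genes had a median of -0.25, with 22 of 26 lower, but -0.05 without si-Control_v replicate 2. Gja5, which encodes the gap junction protein connexin 40 of atria and the conduction system, stood against that direction. It had 86.5 and 80.3 CPM in si-Vldlr cells, against 56.5 and 51.2 CPM in si-Control_v cells (log2 fold change 0.62 ± 0.11, limma adjusted p = 0.135). Cardiac transcription factors had a median of -0.13 with 18 of 23 lower, and -0.14 without si-Control_v replicate 2. Tbx5, a T-box factor of the heart, had 7.98 and 11.5 CPM in si-Vldlr cells, against 12.9 and 13.3 CPM in si-Control_v cells. Neither Gja5 nor Tbx5 overlapped between the groups.

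Genes that burn fuel were lower by small amounts. All 17 tested genes of the tricarboxylic acid cycle, the central pathway of carbon oxidation, had a negative log2 fold change (54.0% of all genes), and 16 lay below si-Control_v with no overlap (27.4% of all genes). Their median was -0.15, and -0.11 without si-Control_v replicate 2. Idh3g, a subunit of isocitrate dehydrogenase, had 133 and 131 CPM in si-Vldlr cells, against 156 and 169 CPM in si-Control_v cells. The list of the oxidation of fatty acids, the main fuel of adult heart muscle, depended more on a single control library. It had 29 of 35 genes lower, with a median of -0.12, and -0.04 without si-Control_v replicate 2. Cpt1b, which admits fatty acids to muscle mitochondria, had 55.1 and 69.3 CPM in si-Vldlr cells, against 76.5 and 112 CPM in si-Control_v cells. The nuclear genes of the respiratory chain had a median of -0.13 with 30 of 33 lower, and -0.03 without it. In none of these 3 lists did limma call a gene. Lower genes at an unadjusted p under 0.05 numbered 5, 3 and 4, beside 6.79% of all genes.

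Glycolysis and glucose uptake genes had a median of -0.32 with 24 of 26 lower, and that median came to -0.10 when si-Control_v replicate 2 was left out and to -0.58 when replicate 1 was. Eno3, the muscle enolase, was the clearest of them, with 18.6 and 19.9 CPM in si-Vldlr cells, against 31.0 and 38.3 CPM in si-Control_v cells (log2 fold change -0.81 ± 0.14, limma adjusted p = 0.114). Slc2a4, the insulin-responsive glucose transporter, overlapped, with 7.85 and 14.7 CPM in si-Vldlr cells, against 14.3 and 44.8 CPM in si-Control_v cells. The 13 mitochondrially encoded genes had a median of -0.35, but -0.05 without si-Control_v replicate 2, where all 13 peaked. Genes of the receptor's own lipid pathway leaned the same way, with 18 of 22 genes of fatty acid uptake and storage lower and a median of -0.21. Lpl, the lipase whose products the receptor helps to take up, had 257 and 255 CPM in si-Vldlr cells, against 302 and 353 CPM in si-Control_v cells. Pnpla2, a lipase of lipid droplets, was listed at 0 in both si-Vldlr libraries, against 20.8 and 23.8 CPM in si-Control_v cells, but also at 0 in a PBS library and both Vldlr OE libraries.

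With all libraries, sterol synthesis genes leaned in the opposite direction. Of 25 sterol synthesis genes, 23 had a positive log2 fold change (46.0% of all genes) and 12 lay above si-Control_v with no overlap (21.1% of all genes), with a median of 0.22. Without si-Control_v replicate 2 the median was 0.05, with 14 higher and 11 lower. Fdps, which makes farnesyl diphosphate, had 476 and 441 CPM in si-Vldlr cells, against 410 and 291 CPM in si-Control_v cells. Genes of the unfolded protein and integrated stress responses had 20 of 22 higher with a median of 0.16, and 0.06 without that library. Calr, a chaperone of the endoplasmic reticulum, had 1203 and 1213 CPM in si-Vldlr cells, against 962 and 888 CPM in si-Control_v cells. Ddit3, a transcription factor of the stress response, had 95.2 and 94.9 CPM in si-Vldlr cells, against 59.2 and 83.6 CPM in si-Control_v cells. Limma called 0 in either list, each with 6 genes at an unadjusted p under 0.05, beside 1633 of all 13815 genes in both directions.

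**Figure D5:**
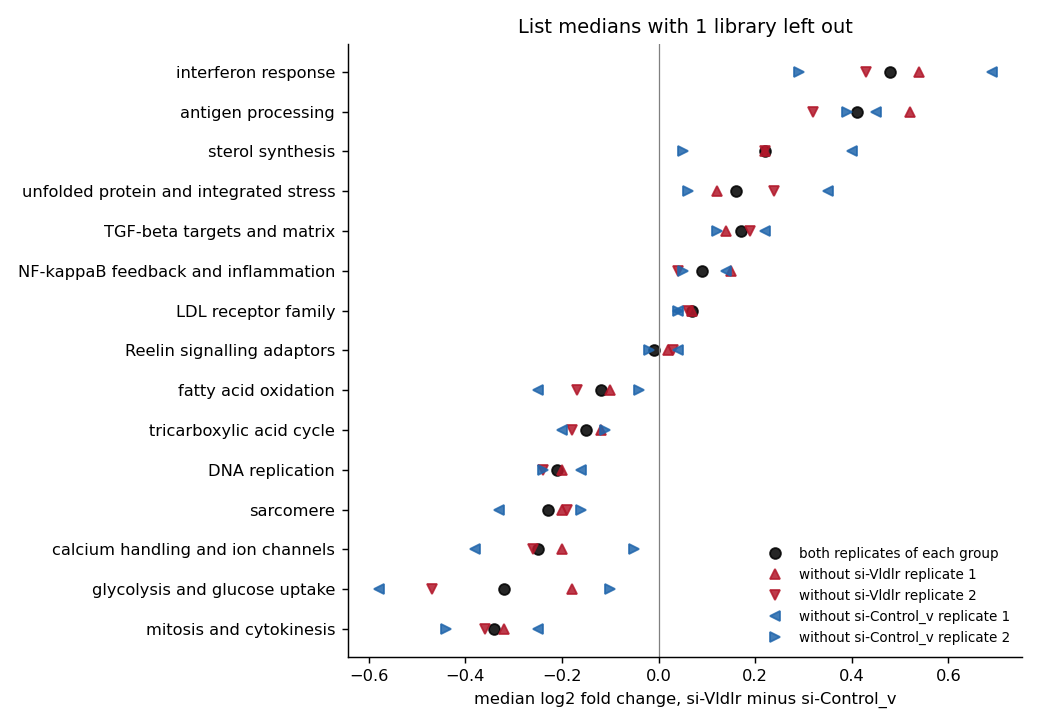
Median log2 fold change of 15 gene lists with all 4 siRNA libraries and with 1 left out, zero being no difference. Interferon-response medians run from 0.29 to 0.69 and mitosis medians from -0.44 to -0.25, while sterol synthesis drops to 0.05 and glycolysis reaches -0.10 without si-Control_v replicate 2.

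Markers of the cell types in such cultures were compared as sums over each list. The 11 cardiomyocyte markers summed to 24431 and 25429 CPM in si-Vldlr cells, against 28526 and 27933 CPM in si-Control_v cells, with 10 of 11 lower. The 10 fibroblast markers summed to 38386 and 36094 CPM in si-Vldlr cells, against 35735 and 37869 CPM in si-Control_v cells, so these sums overlapped. Most of each fibroblast sum was Col1a1. As mean log2(CPM + 1), the fibroblast list had 9.37 and 9.34 in si-Vldlr cells, against 9.24 and 9.32 in si-Control_v cells. Of its 10 genes, 6 were higher and 4 lower. Both cell types were thus well represented in every library. The 10 smooth muscle and pericyte markers summed to 4795 and 4826 CPM in si-Vldlr cells, against 4431 and 3601 CPM in si-Control_v cells. The 2 control libraries differed most in markers of macrophages. These markers summed to 531 and 635 CPM in si-Vldlr cells, against 583 and 1003 CPM in si-Control_v cells, where Lyz2, a macrophage lysozyme, had 369 and 627 CPM. The remaining cell types gave small sums. Endothelial markers summed to 284 and 287 CPM in si-Vldlr cells, against 223 and 252 CPM in si-Control_v cells, and most of that was Eng. Epicardial and mesothelial markers summed to 213 and 208 CPM in si-Vldlr cells, against 195 and 194 CPM in si-Control_v cells, and erythroid markers were near 0. The cardiomyocyte sum was lower in si-Vldlr cells, as sarcomere and metabolic genes were, and its part in those results was not tested. The largest part of that sum was Actc1, with 11313 and 11352 CPM in si-Vldlr cells, against 13196 and 10885 CPM in si-Control_v cells. Between the control libraries the directions differed. Replicate 2 had the lower cardiomyocyte sum but the higher sarcomere mean log2(CPM + 1), at 9.44 against 9.25. Tnni3, Mybpc3 and Myh6, given above as sarcomere genes, are also cardiomyocyte markers, so the marker and sarcomere lists share members.

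The knockdown was also set against Reelin treatment of the same cell type, Reelin being a ligand of the receptor. The difference between the si-Vldlr and the Reelin log2 fold changes was tested in the same fit, and 3 of 13815 genes were called (0.0217%): LOC103694902, Impad1 and LOC108348173. The last 2 had si-Vldlr log2 fold changes of 0.11 and 0.00, so their difference came from the Reelin side. For Olr1 the si-Vldlr log2 fold change was 1.49 and the Reelin one -0.09, a difference of 1.58 (limma adjusted p = 0.0685). For Vldlr they were -0.52 and 0.09 (limma adjusted p of the difference 0.754). The interferon list had a Reelin median of 0.00 and the mitosis list of 0.10, beside 0.02 over all genes.

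In mouse, Vldlr stood at 71.3, 78.9 and 85.1 CPM in Myh6-Cre;Vldlr f/f cells, against 195, 109 and 164 CPM in Vldlr f/f cells. Mitosis genes, matched by symbol, leaned the other way from the rat knockdown, with 38 of 39 higher in Myh6-Cre;Vldlr f/f cells. Their median log2 fold change in mouse was 0.90, beside -0.11 over the 14922 genes of the mouse table, and the difference from rat was not tested. Vldlr f/f replicate 1 was low for this list, with a mean log2(CPM + 1) of 2.48, against 3.74 and 3.63 in the other Vldlr f/f libraries. No median was taken without it. Top2a had 44.4, 58.1 and 67.2 CPM in Myh6-Cre;Vldlr f/f cells, against 13.2, 31.2 and 41.4 CPM in Vldlr f/f cells. Interferon genes had a mouse median of -0.05, with 22 of 51 higher and 29 lower. With si-Thbs1 all 39 mitosis genes were higher than with si-Control_t, at a median of 0.89. Top2a had 130 and 116 CPM in si-Thbs1 cells, against 78.9 and 52.7 CPM in si-Control_t cells.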

How the data were processed

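RNA libraries were made from TRIzol extracts, per the labels' protocols. Per the submitters' processing notes, the tools were StringTie 1.3.4, HISAT2 2.1.0 and edgeR 3.20.9, in no stated order, and the genome builds were mm10 and rn6. The values deposited by the authors are CPM: each column adds up to 1000000, whole reads could not be recovered from it, and no count test was run. Some genes switch between 0 and a clear level among replicates.

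Columns were matched to samples by name; 2 columns with no matching label and 4 genes with a repeated name were left out. limma 3.58.1 (R 4.3.3) was fitted with an intensity trend to log2(CPM + 1), with 10 libraries in 5 groups and 5 residual degrees of freedom, for genes at 1 CPM or more in at least 2 libraries. Benjamini-Hochberg adjustment covered all 13815 genes, and calls were made at 0.05. The fit was also run on simulated data with independent normal noise and no outlying library. That run therefore does not bear on the control library that stood apart. Alternatives were pseudocount 0.25, other filters, median-ratio scaling, the 4 siRNA libraries alone, a replicate block and leaving out each library; a fit of genes above 0 in all 10 libraries was added after seeing the data. Tests were made within a table.

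Named genes were Vldlr, Reln, Thbs1, called genes, the 10 largest differences per direction as the text defines them, and from each of the 40 lists up to 4 members with the smallest p and those that define its role. The members and lists were chosen with earlier results of these data known. Promoter sequences are RefSeq's on GRCr8, matched by symbol, and the authors' build was rn6, so no coordinate of theirs was used. Some genes are not reported here. Tables and figures were made with Python 3.11.15, pandas 2.3.3, numpy 2.4.6 and matplotlib 3.10.9.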

Additional observations from a re-analysis of the deposited data

Results flagged for a closer look

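Mitosis and cytokinesis genes went in opposite directions in the rat knockdown and in the mouse knockout. Their mean log2(CPM + 1) was 4.91 and 4.95 in si-Vldlr cells, against 5.35 and 5.15 in si-Control_v cells, and the median log2 fold change was -0.34. In mouse the mean was 3.88, 3.99 and 4.46 in Myh6-Cre;Vldlr f/f cells, against 2.48, 3.74 and 3.63 in Vldlr f/f cells, with a median of 0.90. Every tested library lay on one side of its controls in rat and on the other in mouse. The difference was not tested.

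Smooth muscle and pericyte markers also had medians of opposite sign, with smaller values, at 0.13 in rat and -0.35 in mouse. The rat markers were split. Rgs5, Abcc9 and Kcnj8 had negative log2 fold changes of -0.48, -0.33 and -0.21, and the other markers had positive ones, up to 0.52 for Tagln. Their mean log2(CPM + 1) was 6.74 and 6.82 in si-Vldlr cells, against 6.72 and 6.74 in si-Control_v cells, so the rat groups touched at this precision. In mouse it was 6.67, 6.39 and 6.35 in Myh6-Cre;Vldlr f/f cells, against 6.73, 6.86 and 6.81 in Vldlr f/f cells. This difference was not tested either.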

How the results depend on the processing

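The count of called genes was 5 with all libraries. It was 8 when only the 4 siRNA libraries were fitted, 1 of them shared, 1 with no filter on low values, and 2 with only genes above 0 in all 10 libraries, chosen after seeing the data. Leaving out each library in turn gave 6 to 136. The 136 came without si-Control_v replicate 1 and held all 5; without si-Control_v replicate 2 there were 8, 3 of them shared. With a replicate block the count was 4. Replicate numbers were not taken as pairs, since the labels name no shared culture and the correlation of the replicate differences was 0.156 in the only pair of groups. The difference from the Reelin effect was called in 3 genes, in 1 with only genes above 0, in 5 with pseudocount 0.25, in 6 with the replicate block, and in 7 to 13 with each library left out. Reln ran from -0.63 without si-Control_v replicate 2 to 0.45, a reversed sign, without si-Control_v replicate 1. Vldlr kept its direction under each of the 12 settings, with log2 fold changes from -0.57 to -0.47, and was called in 0 of them. Interferon-response medians ran from 0.29 to 0.69 and mitosis medians from -0.44 to -0.25 over the same settings. The depth of the libraries is unknown, and 2 libraries a side limit the test to large differences.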

Other observations

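The receptor family of Vldlr and the lists of the Reelin adaptors, immediate early genes, NF-kappaB feedback genes and ErbB and IGF signalling had medians within 0.1 of 0 with all libraries. The immediate early median of 0.02 came to -0.18 with 15 of 21 genes lower without si-Control_v replicate 2, and to 0.08 with 16 of 21 higher without replicate 1. With a library left out, NF-kappaB feedback reached 0.15 and ErbB and IGF signalling -0.13. For NF-kappaB feedback and inflammation the median log2 fold change was 0.09 with 19 of 29 genes higher. Sod2, the mitochondrial superoxide dismutase that NF-kappaB induces, had 320 and 367 CPM in si-Vldlr cells, against 250 and 277 CPM in si-Control_v cells. Ccl7, a monocyte chemokine, had 149 and 176 CPM in si-Vldlr cells, against 113 and 108 CPM in si-Control_v cells. In both the groups did not overlap, and neither was called (limma adjusted p = 0.345 for Sod2 and 0.392 for Ccl7).

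The binding proteins of insulin-like growth factors were split. Igfbp3, the main carrier in serum, had 155 and 194 CPM in si-Vldlr cells, against 95.5 and 140 CPM in si-Control_v cells. Igfbp6 had 11.7 and 13.6 CPM in si-Vldlr cells, against 17.2 and 20.8 CPM in si-Control_v cells, and Igfbp4 had 49.3 and 53.6 CPM in si-Vldlr cells, against 58.2 and 90.0 CPM in si-Control_v cells. The RNA interference machinery, which siRNAs use, had 11 of 13 genes lower with a median of -0.07, and Ago2, its slicing enzyme, had 22.8 and 24.6 CPM in si-Vldlr cells, against 29.4 and 26.1 CPM in si-Control_v cells.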
